A study of Homo sapiens with 18 samples.

Results

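RNA polymerase III (Pol III) makes short, abundant RNAs that other machines of the cell are built around, and 6 of its genes are described here: RMRP, RPPH1, RN7SL1, RN7SL2, RNU6ATAC and VTRNA1-1. The values are ChIP-seq read counts of RNA polymerase II (Pol II) that carries phosphate at serine 5 of the C-terminal repeat (Ser5 Pol II), the form that gathers near transcription start sites. Members were the regions of the count table that overlap a window of the hg19 genome, 2200 to 2500 bases long, set around each gene. Of 12123 regions, each 400 bases between start and end, 5 lay in a window: 1 each for RMRP, RPPH1, RN7SL1, RN7SL2 and RNU6ATAC. The window of VTRNA1-1 held 0 regions, so no Ser5 value can be given there, which says only that the table has no row at that place.

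The counts come from Rh30, an alveolar rhabdomyosarcoma line driven by PAX3-FOXO1, a fusion of a pair of transcription factors. In all groups, controls included, the cells carried PAX3-FOXO1 joined to FKBP, so that the fusion protein is degraded when the small molecule dTAG47 is added. Cells had received 500 nM dTAG47 for 2 h, 500 nM dTAG47 for 4 h, or the solvent DMSO, with 2 libraries in each group, called A and B; where a pair of values is given for a group, A comes before B. The labels give no time for DMSO and do not say whether a pair of libraries came from separate cultures or whether the tagged line is a single clone. The p-values therefore reflect no more than how far these libraries differ, possibly for technical reasons, and the loss of the fusion protein cannot be checked from these counts. Markers of the line were not checked either, since the regions carry no gene names. Library totals, summed over the regions of the table and not over all reads sequenced, ran from 962251 to 1792013 counts. The 5 regions had 47 to 180 counts each per library.

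Pol III has no C-terminal repeat of the kind that carries serine 5, so the signal reports Pol II and not Pol III itself. Pol III genes nevertheless often have Pol II close by, from a gene that shares their promoter or runs away from them in the opposite direction. RPPH1, RMRP and RNU6ATAC are known to have promoters that lie outside the transcribed part, with a TATA box and elements read by the SNAPc complex, which also serves Pol II genes for small nuclear RNAs. RNA 7SL and vault RNA genes also use elements inside the transcribed part. Ser5 Pol II at a region can come from more cells with the polymerase there or from more of it per cell, and these cannot be told apart.

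In the RefSeq gene table (GRCh38.p14, used only for names and neighbours), which holds 6 of the 6 genes, the next gene above RPPH1 in position is PARP2, and the next above RMRP is CCDC107. PARP2 encodes a poly(ADP-ribose) polymerase of the DNA damage response. Both neighbours are protein-coding and are given on the plus strand. RN7SL1 lies within the span of RPS29, a ribosomal protein gene. RN7SL2 lies in the span of the long noncoding RNA gene LOC105378179, and RNU6ATAC in that of LOC124902297, with WDR5 as the next gene below. VTRNA1-1 lies between ZMAT2 and VTRNA1-2, within the span of LOC105378198.

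The RefSeq promoter table matched 0 of the 6 genes by symbol. Entries close to the Pol III gene were then sought only for the next gene above each of them in position. Genes below or overlapping, such as WDR5 and RPS29, were not looked up. This search gave entries for PARP2 and CCDC107, from 250 bases before to 50 after the start. They are shown because each covers the stretch next to the Pol III gene from which both genes can be read: the PARP2 entry runs into the edge of RPPH1, and the CCDC107 entry begins just beyond RMRP. Capitals mark matches to the motifs searched. The PARP2 entry is at chr14:20343385-20343684 and the CCDC107 entry at chr9:35658042-35658341, both in GRCh38.p14 on the plus strand, positions that are not comparable with the hg19 positions of the regions.
PARP2, next to RPPH1: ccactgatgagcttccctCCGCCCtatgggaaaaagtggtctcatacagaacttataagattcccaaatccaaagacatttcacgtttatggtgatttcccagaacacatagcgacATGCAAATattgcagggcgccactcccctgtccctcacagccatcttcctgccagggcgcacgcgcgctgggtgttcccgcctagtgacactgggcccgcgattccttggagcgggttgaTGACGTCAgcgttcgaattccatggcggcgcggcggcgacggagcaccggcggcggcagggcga
CCDC107, next to RMRP: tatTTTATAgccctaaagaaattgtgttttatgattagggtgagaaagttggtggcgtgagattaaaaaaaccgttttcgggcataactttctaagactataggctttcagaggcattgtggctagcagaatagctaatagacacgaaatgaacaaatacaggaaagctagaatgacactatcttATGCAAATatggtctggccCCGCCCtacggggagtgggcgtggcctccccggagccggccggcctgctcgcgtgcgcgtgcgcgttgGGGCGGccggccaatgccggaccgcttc

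Both stretches held the octamer ATTTGCAT, the sequence bound by OCT1, on the strand opposite to the one printed, where it reads ATGCAAAT. It lay 134 to 127 bases before the PARP2 start and 65 to 58 bases before the CCDC107 start, and 1.77% of the 35116 promoters of the table hold it on either strand. The cyclic AMP element TGACGTCA, which reads the same on both strands, was found 14 to 7 bases before the PARP2 start and not in the CCDC107 stretch, against 1.85% of all promoters. The TATA letters TATAAA were found on the opposite strand 247 to 242 bases before the CCDC107 start, and 11.5% of promoters hold them. Only TATAAA and TATATA were searched as TATA boxes, so a stretch with no marked match may still hold another form. The PARP2 stretch holds the letters TATAAG, which were not searched and whose share among promoters was not computed. The box GGGCGG occurred in both stretches, as in 45.0% of promoters. Neither stretch held TATATA (3.99% of promoters) or the B box of internal Pol III promoters (0.185%). All motifs were searched on both strands, and no marked matches overlap. These matches describe letters and do not show that a factor binds.

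The regions did not all sit at the same place in their windows. The RPPH1 region was centred 6 bases from the middle of its window. The RMRP region was centred 606 bases from the middle on the higher side, which is the side of CCDC107. The RNU6ATAC region was centred 747 and the RN7SL2 region 329 bases to the higher side, and for RN7SL1 the offset was -416, on the lower side. Of the 5, only the RPPH1 region covered the middle of its window, while the others lay to one side. Regions are called here by the gene of their window. The hg19 ends of the genes were not available, so whether a region covers the gene itself or only its flank was not determined. Differences between the named genes are therefore differences between regions that sit at different places in their windows.

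Levels were compared as CPM, counts relative to a library total adjusted by TMM factors, over regions of equal length. In DMSO, RMRP had the highest level of the 5, 93.4 ± 5.34 CPM (SD, n = 2 as for all levels), above 75.5% of all regions. RN7SL1 followed with 64.0 ± 4.28 CPM, RNU6ATAC with 63.7 ± 11.5 CPM and RN7SL2 with 61.1 ± 9.01 CPM, close to the median of all regions of 63.8 CPM. RPPH1 was lowest with 47.0 ± 9.97 CPM, above 28.6% of regions. RMRP stood apart from RN7SL1 with no overlap of libraries, while RN7SL1, RNU6ATAC and RN7SL2 overlapped as neighbours in this order. RN7SL2 and RPPH1 were barely apart. The lower RN7SL2 library had 54.7 CPM (80 counts) and the higher RPPH1 library 54.1 CPM (79 counts), both library B. After 2 h of dTAG47 the order was RPPH1, RMRP (90.0 ± 2.83 CPM), RN7SL1 (84.7 ± 4.70 CPM), RNU6ATAC (53.9 ± 1.18 CPM) and RN7SL2 (52.2 ± 6.13 CPM). There the first 3 overlapped as neighbours, as did the last 2, and no library of RNU6ATAC reached those of RN7SL1.

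**Figure D1:**
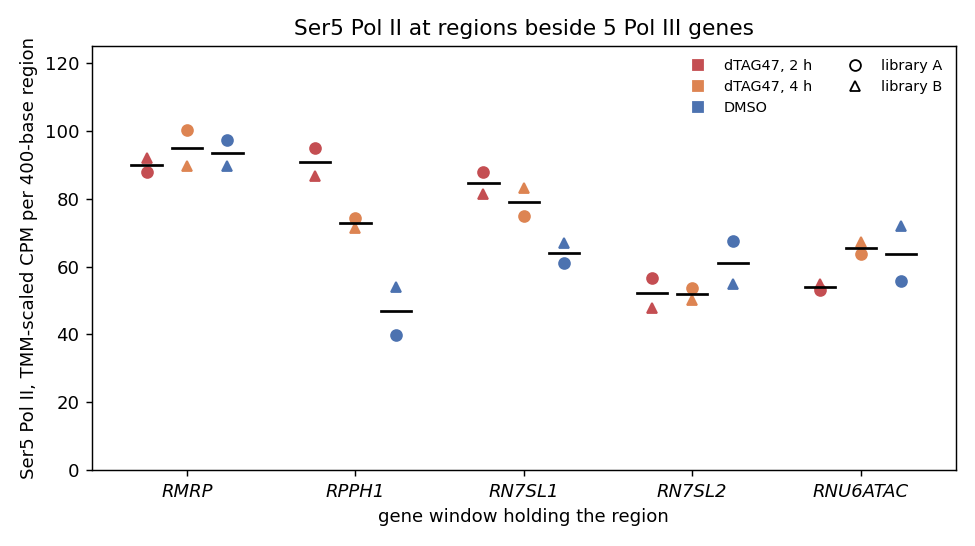
Ser5 Pol II at the region of each gene, in TMM-scaled CPM per 400-base region, for the 2 libraries of each group (circle for A, triangle for B) with the group mean as a black bar. RPPH1 stands at 95.0 and 86.7 CPM after 2 h of dTAG47 and at 40.0 and 54.1 CPM in DMSO, while RMRP lies between 88.0 and 100.2 CPM in all 6 libraries.

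The first comparison asked how Ser5 Pol II at the regions in these windows had changed 2 h after dTAG47. Of the 5 regions, 1 rose, that of RPPH1, and 0 fell (edgeR quasi-likelihood test over all 12123 regions, Benjamini-Hochberg adjusted p under 0.05). Among all regions, 2.22% rose and 0.396% fell by this rule. The median log2 fold change of the 5 was -0.06, against -0.01 for all regions. With total count scaling the split of calls among all regions was 166 higher and 87 lower, against 269 higher and 48 lower with TMM.

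RPPH1 encodes the RNA of RNase P, the enzyme that trims the leader from the 5′ end of transfer RNA precursors. Its region, on chromosome 14 at 20811206 to 20811606 (hg19), had 95.0 and 86.7 CPM after 2 h of dTAG47, against 40.0 and 54.1 CPM in DMSO. The counts behind these levels were 136 and 114 at 2 h and 74 and 79 in DMSO. Both 2 h libraries lay above both DMSO libraries, which was so for 21.9% of all regions. The level averaged 90.8 ± 5.87 CPM at 2 h and 47.0 ± 9.97 CPM in DMSO (SD, n = 2 each), a 1.96-fold difference (log2 fold change 0.97, SE 0.17, 95% interval 0.63 to 1.31, edgeR adjusted p = 0.000132). This log2 fold change was above that of 99.6% of regions, and its p was the 48th lowest of the table. The region had the lowest mean of the 5 in DMSO and the highest at 2 h, where it stood above 73.0% of all regions. At 2 h its libraries overlapped those of the RMRP and RN7SL1 regions. PARP2 starts beside RPPH1, as the stretch printed above shows, and the count cannot tell Pol II that reads PARP2 from other Pol II beside RPPH1.

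RMRP encodes the RNA of RNase MRP, a relative of RNase P that shares most of its protein subunits and cleaves ribosomal RNA precursors. Its region, on chromosome 9 at 35658306 to 35658706, had 88.0 and 92.0 CPM after 2 h, against 97.2 and 89.6 CPM in DMSO. The libraries overlapped, and the log2 fold change was -0.06 (SE 0.15, edgeR adjusted p = 0.915, 95% interval -0.36 to 0.24). The stretches beside RMRP and RPPH1 both hold the octamer, and of these regions only that of RPPH1 was called. Beside the other genes no stretch was searched. A protein-coding next gene is not particular to RMRP and RPPH1. LRR1 is next above RN7SL1, ARF6 next above RN7SL2, WDR5 next below RNU6ATAC and ZMAT2 next below VTRNA1-1. The difference between the fold changes of RMRP and RPPH1 was not tested.

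RN7SL1 and RN7SL2 encode 7SL RNA, the RNA of the signal recognition particle, which brings ribosomes making secreted proteins to the endoplasmic reticulum. The RN7SL1 region, on chromosome 14 at 50052834 to 50053234, had 88.0 and 81.3 CPM after 2 h, against 61.0 and 67.1 CPM in DMSO. The 2 h libraries were both above the DMSO libraries, as for 21.9% of all regions. The difference did not pass the threshold (log2 fold change 0.41, SE 0.16, 95% interval 0.10 to 0.72, edgeR unadjusted p = 0.0113, edgeR adjusted p = 0.170). The RN7SL2 region, on the same chromosome at 50329579 to 50329979, had 56.6 and 47.9 CPM at 2 h, against 67.5 and 54.7 CPM in DMSO. Its groups overlapped, and its log2 fold change was -0.24 (SE 0.18, 95% interval -0.59 to 0.12, edgeR adjusted p = 0.599). With 1 library left out this value ran from -0.36, without 2 h library A or DMSO library B, to -0.12 without 2 h library B and -0.06 without DMSO library A. The copies are nearly identical in sequence and the gene table lists 684 further pseudogenes named after RN7SL, so reads within them may be shared between copies. The sources used here do not say how such reads were placed.

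RNU6ATAC encodes U6atac, the small nuclear RNA at the catalytic centre of the minor spliceosome, which removes a rare class of introns. Its region, on chromosome 9 at 137030147 to 137030547, had 53.1 and 54.7 CPM after 2 h, against 55.6 and 71.9 CPM in DMSO. Both 2 h libraries were below both DMSO libraries, as for 21.8% of all regions, and the difference did not pass the threshold (log2 fold change -0.23, SE 0.17, 95% interval -0.58 to 0.12, edgeR adjusted p = 0.610). The value was -0.41 without DMSO library A and -0.04 without DMSO library B, so it rested on which DMSO library was kept. Pseudogenes named after it number 41 in the gene table, against 2 for RPPH1 and 1 for RMRP.

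**Figure D2:**
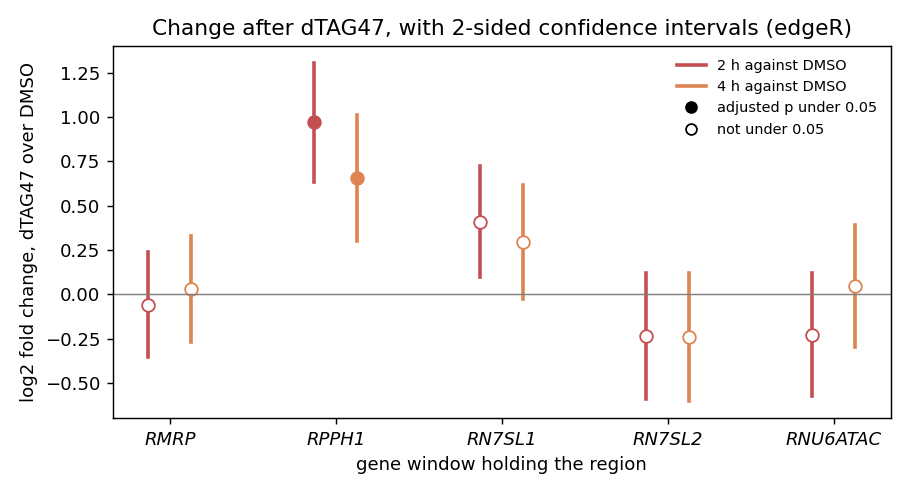
Log2 fold change of each region after 2 h and 4 h of dTAG47 over DMSO, with 95% intervals from edgeR; filled points have an adjusted p under 0.05. Only the RPPH1 points are filled, at 0.97 for 2 h and 0.66 for 4 h, and both rest on the same 2 DMSO libraries.

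The second comparison set 4 h of dTAG47 against the same DMSO libraries. Again 1 of the 5 regions rose, that of RPPH1, and 0 fell, against 1.52% and 0.487% of all regions. The median log2 fold change was 0.04 for the 5 and -0.01 for all regions. Total count scaling gave 120 higher and 83 lower calls among all regions, against 184 higher and 59 lower with TMM.

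The RPPH1 region had 74.4 and 71.4 CPM after 4 h, with an average of 72.9 ± 2.10 CPM against 47.0 ± 9.97 CPM in DMSO (SD, n = 2 each). Both 4 h libraries were above both DMSO libraries, as for 20.2% of all regions. The difference was 1.58-fold (log2 fold change 0.66, SE 0.18, 95% interval 0.30 to 1.01, edgeR adjusted p = 0.0338). This call ended without DMSO library A (0.44, adjusted p = 0.444), without 4 h library A (0.62, 0.165), without 4 h library B (0.69, 0.0691), with total count scaling (0.60, 0.0728), in DESeq2 (0.65, 0.511) and with a covariate (0.62, 0.105). The covariate was the share of each library's counts over the table that fell in the 3 regions highest on average. It was 2.61% and 3.21% at 2 h, 2.61% and 4.17% at 4 h, and 1.77% and 2.61% in DMSO. The 2 h call held in each of the 14 alternatives that gave an adjusted p, with log2 fold changes from 0.75 without DMSO library A to 1.19 without DMSO library B. Among these, the fit with no filter only repeats the main fit, since the filter removed 0 regions. DESeq2 gave the region no adjusted p at 2 h, where its unadjusted p was 0.000242.

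**Figure D3:**
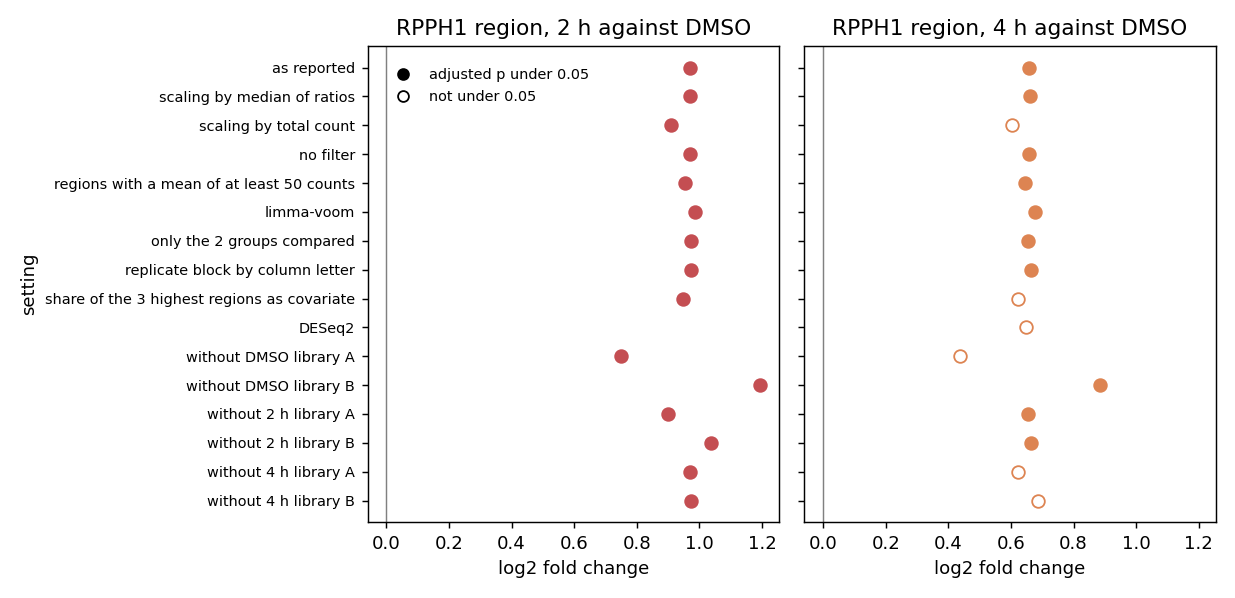
Log2 fold change of the RPPH1 region over DMSO under each setting that gave an adjusted p, at 2 h and at 4 h; filled points have an adjusted p under 0.05. All 2 h points are filled, while at 4 h 6 of the points are open, the lowest at 0.44. The points with no filter repeat those as reported. DESeq2 has a point at 4 h only.

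The other 4 regions did not pass the threshold at 4 h. RN7SL1 had 75.0 and 83.1 CPM after 4 h, both above the DMSO libraries, as for 20.2% of all regions (log2 fold change 0.30, SE 0.16, 95% interval -0.03 to 0.62, edgeR adjusted p = 0.441). RN7SL2 had 53.6 and 50.1 CPM, both below the DMSO libraries, as for 20.6% of all regions (log2 fold change -0.24, edgeR adjusted p = 0.628, and -0.07 without DMSO library A). RMRP had 100.2 and 89.5 CPM, a log2 fold change of 0.03 with an interval of -0.27 to 0.33. RNU6ATAC had 63.6 and 67.1 CPM, a log2 fold change of 0.04 with an interval of -0.30 to 0.39. For RMRP and RNU6ATAC the 4 h libraries overlapped those of DMSO. In order of level, 4 h placed RMRP highest with 94.8 CPM, then RN7SL1, RPPH1, RNU6ATAC and RN7SL2 with 51.8 CPM, and no neighbours in that order overlapped. RN7SL1 and RPPH1 were barely apart, with 75.0 CPM (119 counts) and 74.4 CPM (118 counts) in library A.

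Set against 2 h directly, 4 h gave 0 called regions among the 5 and 0% of all regions in either direction in edgeR, where 145 regions were higher and 251 lower with an unadjusted p below 0.05. By the same measure DESeq2 gave 33 and limma-voom 385 regions, and each called 0. RPPH1 was at 74.4 and 71.4 CPM at 4 h, against 95.0 and 86.7 CPM at 2 h. The 4 h libraries were both lower, as for 16.4% of regions, but the difference did not pass (log2 fold change -0.31, SE 0.16, unadjusted p = 0.0590, edgeR adjusted p = 0.998). RNU6ATAC was higher in both 4 h libraries, as for 15.1% of regions (log2 fold change 0.27, SE 0.18, edgeR adjusted p = 0.998). Intervals of this difference, -0.64 to 0.01 for RPPH1 and -0.09 to 0.64 for RNU6ATAC, leave room for changes of some size between the times. For RMRP, RN7SL1 and RN7SL2 the log2 fold changes were 0.09, -0.11 and -0.01.

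Ratios of counts between regions of the same library do not depend on how libraries are scaled. RPPH1 counts divided by RMRP counts gave 1.08 and 0.942 at 2 h, 0.742 and 0.798 at 4 h, and 0.411 and 0.603 in DMSO. All 4 dTAG47 libraries were above both DMSO libraries. With RNU6ATAC below the line the ratios were 1.79 and 1.58 at 2 h, 1.17 and 1.06 at 4 h, and 0.718 and 0.752 in DMSO. These ratios share the RPPH1 counts and DMSO libraries of the comparisons above, so they show the same RPPH1 difference on another scale and are not separate observations. With each of the other 12122 regions of the table below the line in turn, in 85.7% of cases the RPPH1 ratio was likewise higher in the 4 dTAG47 libraries than in both DMSO libraries. By CPM, 12.6% of all regions stood that way. RPPH1 took 25.0% and 23.9% of the counts of the 5 regions at 2 h, 20.3% and 19.8% at 4 h, and 12.4% and 16.0% in DMSO.

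Of the 10 pairs among the 5 regions, 7 had ratios that did not overlap between the 4 dTAG47 libraries and DMSO, 4 of them with RPPH1 and the others with RN7SL1. RN7SL1 counts divided by RN7SL2 counts, for example, gave 1.56 and 1.70 at 2 h, 1.40 and 1.66 at 4 h, and 0.904 and 1.23 in DMSO. Neither of those regions was called at either time, and with 54.5% of the other regions of the table below the line the RN7SL1 ratio was likewise above DMSO in the 4 dTAG47 libraries. For RPPH1 that share was 85.7%. These ratios are a description with no test, and the share of such pairs among all pairs of regions was not computed. The count of 7 is therefore not a result about these genes.

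**Figure D4:**
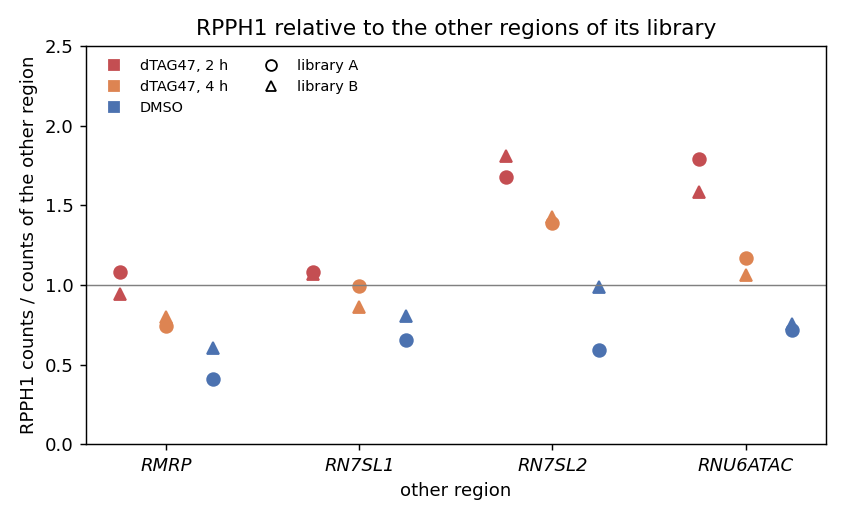
Counts of the RPPH1 region divided by the counts of each other region in the same library, for libraries A (circle) and B (triangle) of each group. With each of the other 4 regions below the line, the 4 dTAG47 libraries lie above both DMSO libraries, as they do with 85.7% of the regions of the table; all ratios share the RPPH1 counts.

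The surroundings of the windows were measured as well. Within 100 kb of a window lay 29 further regions, whose log2 fold changes had a median of -0.06 at either time. Of these, 1 was called at 2 h and 0 at 4 h. The called region lay on chromosome 9 at 35756921 and fell at 2 h (log2 fold change -0.59, edgeR adjusted p = 0.0172). It was close to the 100 kb limit from the RMRP window, which ends at 35659100, and other regions lay between.

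Around RPPH1 the table held 2 regions within 100 kb. The one below, at 20777675 to 20778075, had low signal, 18.9 and 10.6 CPM after 2 h, against 8.64 and 7.53 CPM in DMSO. Its log2 fold change of 0.86 had an SE of 0.45 and did not pass (edgeR adjusted p = 0.375). The one above, at 20881357 to 20881757, gave log2 fold changes of -0.07 and -0.06 at the 2 times (edgeR adjusted p = 0.906 and 0.927).

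On either side of RMRP, the nearest regions, at 35646625 and 35664978, had log2 fold changes of -0.07 and 0.22 at 2 h. After 4 h these were -0.19 and 0.28. The region next above RN7SL1, at 50065518, had -0.10 at both times, unlike the positive values of the RN7SL1 region itself, and on the lower side the next region was beyond 100 kb. Beside RN7SL2 the regions at 50319220 and 50334580 had -0.21 and 0.12 at 2 h, and beside RNU6ATAC the region at 137001015 had 0.28. None of these passed the threshold. The regions nearest to the empty window of VTRNA1-1, which encodes an RNA of the vault particle, were at 140079898, with 0.42 at 2 h (edgeR adjusted p = 0.312), and at 140167252, with -0.70 (adjusted p = 0.152).

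**Figure D5:**
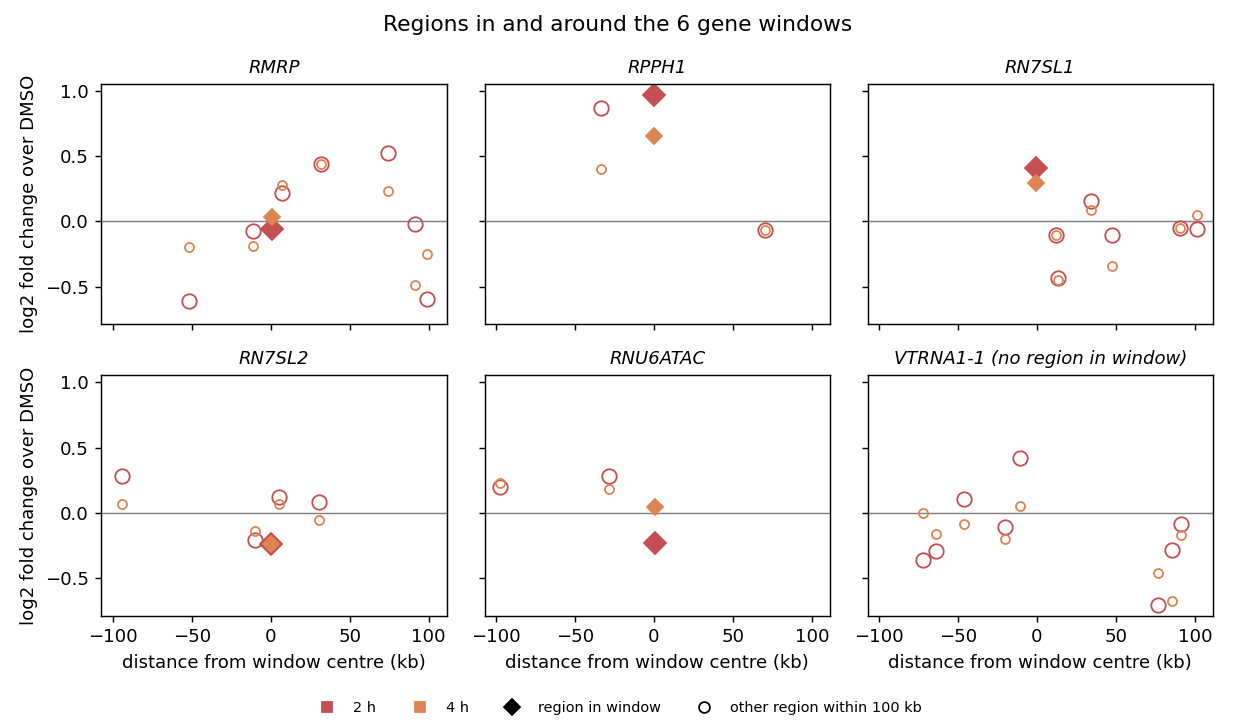
Log2 fold change over DMSO of the regions in each window (diamonds) and of the other regions within 100 kb (open circles), against distance from the window centre in kb, at 2 h (large) and 4 h (small). The RPPH1 diamonds stand at 0.97 and 0.66, and the window of VTRNA1-1 holds no region.

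The regions elsewhere whose log2 CPM followed RPPH1 most closely over the 6 libraries lay on chromosome 6 at 26033438 to 26033838 (Pearson's r = 0.994) and on chromosome 1 at 150336567 to 150336967 (r = 0.989). The chromosome 6 region had 110 and 107 CPM at 2 h, 87.6 and 86.3 CPM at 4 h and 54.5 and 66.4 CPM in DMSO. Its log2 fold change was 0.86 at 2 h and 0.54 at 4 h, and that of the chromosome 1 region 0.60 and 0.41. These regions were chosen for following RPPH1 in the same libraries, so their fold changes describe the choice and are given with no test. With 6 libraries such r values arise easily, and 277 regions had an r over 0.9 with RPPH1.

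For RN7SL1 the closest were on chromosome 7 at 26227157 (r = 0.993) and chromosome 2 at 73482039 (r = 0.990), and 306 regions passed 0.9. Chosen in the same way, they had log2 fold changes of 0.54 and 0.59 at 2 h. The closest to RMRP lay on chromosome 11 at 86748672 (r = 0.991) and chromosome 16 at 778134 (r = 0.985). Those to RN7SL2 were on chromosome 11 at 797886 (r = 0.998) and chromosome 1 at 6639963 (r = 0.992), and those to RNU6ATAC on chromosome 11 at 17374943 (r = 0.983) and chromosome 3 at 186545029 (r = 0.982).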

How the data were processed

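Ser5 Pol II was measured by ChIP-seq in 6 of the 18 samples of the series; the 12 samples made with other antibodies were not analysed here. The authors deposited raw counts per region, and the submitters' processing notes list, with no roles, the builds hg19 and dm3 and the tools DESeq2, DiffBind, MACS2, Bowtie2 and Trimmomatic 0.32. The sources used here do not say how regions were called or reads counted. The table has no spike-in rows, so a uniform gain or loss over the whole table cannot be detected. Columns were tied to groups by treatment; their letters A and B are not tied to the replicate numbers of the labels. Libraries of a group differed by more than sampling noise (chi-square per degree of freedom 1.50 to 2.33).

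Counts were fitted in edgeR 4.0.16 (R 4.3.3) with TMM factors, all 6 libraries in 1 fit and Benjamini-Hochberg adjustment over 12123 regions; filterByExpr removed 0 regions. The biological coefficient of variation was 8.05%. SEs are the log2 fold change divided by the square root of F. DESeq2 1.42.0 and limma 3.58.1 were alternatives, with other scalings, filters and fits. Every region in a window was named, with the nearest regions on either side within 100 kb and the 2 most alike by Pearson's r among regions averaging 20 counts or more. Other Pol III genes were to be named only with an hg19 annotation and were not placed. Motif positions were found in Python 3.11.15. The promoter stretches were chosen after the values were seen. The members and lists were chosen with earlier results of these data known.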

Additional observations from a re-analysis of the deposited data

How the results depend on the processing

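The single call among the 5 regions at 2 h stayed in every alternative that gave an adjusted p for RPPH1. At 4 h the number called was 0 with total count scaling, 0 with the share of the 3 highest regions as a covariate, 0 in DESeq2, and 0 to 1 with 1 library left out; the cause was not tested. Leaving out a DMSO or dTAG47 library leaves a lone library that is assumed to vary like the other groups. DESeq2 gave no adjusted p for RPPH1 at 2 h, and so no count; it gave none for 7756 regions at 2 h and 6346 at 4 h.

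Fold changes near 0 changed sign. RMRP at 2 h was 0.0080 with the covariate and -0.10 to 0.0044 with 1 library left out. At 4 h RMRP was -0.022 with total count scaling and -0.066 to 0.10 with 1 library left out. RNU6ATAC at 4 h was -0.0086 with total count scaling, -0.11 with the covariate and -0.14 to 0.24 with 1 library left out. Between 4 h and 2 h, RN7SL2 was 0.0024 with total count scaling, 0.0020 with limma-voom, 0.047 with the covariate and -0.12 to 0.12 with 1 library left out, and RMRP was -0.0069 to 0.16 with 1 left out. RN7SL1 between the times kept its sign, at -0.17 to -0.028 with 1 left out. None of these was called in any of these settings.

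The median log2 fold change of regions around the windows was 0.10 within 50 kb at 2 h. Between 4 h and 2 h it was -0.090 within 50 kb and 0.0063 within 200 kb. The DMSO levels moved by less than 1 SD under other scalings.

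Same-letter libraries of different groups deviated together (r over regions of 0.219 for 2 h with DMSO, 0.279 for 4 h with DMSO and 0.158 for 4 h with 2 h), but each comparison has only 2 such pairs and the labels do not pair them. With a replicate block by column letter, RPPH1 had log2 fold changes of 0.97 at 2 h (edgeR adjusted p = 1.26e-07), 0.66 at 4 h (0.00353) and -0.31 between the times (0.818), and the other 4 regions were not called. Over all regions the block gave 629 rises and 230 falls at 2 h and 540 and 203 at 4 h, the highest counts of any setting, while DESeq2 gave the lowest, 96 and 3 at 2 h and 53 and 5 at 4 h. Without 4 h library A, 1 region was called between the times. Summing the rows of a window and omitting the filter tested nothing, since no window held more than 1 row and the filter removed none. Counts of 47 to 180 per region and 2 libraries a group limit what can be detected.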
